A study of Mus musculus with 12 samples.

Results

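Matrix metalloproteinases and their tissue inhibitors were followed in osteoclasts grown from mouse bone marrow. Osteoclasts are large cells with many nuclei, formed by fusion, that dissolve and digest bone. The set held 9 of the 55414 gene IDs in the count tables: 6 metalloproteinases (Mmp2, Mmp8, Mmp9, Mmp12, Mmp14 and Mmp19) and 3 inhibitors (Timp1, Timp2 and Timp3). They were taken by name, through the Ensembl gene IDs. RNA was sequenced from 12 cultures in 4 groups of 3. Macrophages were grown from the bone marrow of male mice of 7 to 8 weeks with M-CSF, the macrophage growth factor, given at 30 ng/ml in the design text. From day 3 they received M-CSF together with RANKL, which turns macrophages into osteoclasts, for 4 days. The groups were wild type Hes1 loxP, Notch2 mutant Hes1 loxP, wild type Hes1 deletion and Notch2 mutant Hes1 deletion. Hes1 loxP means that loxP sites flank an intact Hes1 gene, and in Hes1 deletion the gene is lost. The sources used here name neither the Notch2 mutation nor the enzyme and cell type of the Hes1 deletion, nor how many mice stand behind a culture. Samples are labelled as biological replicates, and the p-values measure the spread between those samples.

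Metalloproteinases are zinc enzymes that are made as inactive precursors and, once their propeptide is removed, cut collagens, gelatin, elastin and other matrix proteins. TIMPs block the active enzymes by binding in the catalytic cleft, so that proteolysis depends on the balance between enzyme and inhibitor. Osteoclasts are known for secreting Mmp9 and for carrying the membrane-bound Mmp14 at the bone surface, where collagen is otherwise digested mainly by cathepsin K. Notch2 is a receptor whose cleaved intracellular part acts with the DNA-binding protein RBPJ, and Hes1, a transcriptional repressor, is one of its classical target genes.

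Between 13832368 and 19293772 counts per library were assigned to genes, and levels are given as CPM, each gene's share of them scaled to a common total. Hes1 had 6 to 11 counts per library in wild type Hes1 loxP, 2 to 3 in Notch2 mutant Hes1 loxP, 0 to 2 in wild type Hes1 deletion and 0 to 1 in Notch2 mutant Hes1 deletion. Notch2 was at 143 to 175 CPM over all 12 libraries, and gene counts do not read which Notch2 allele was transcribed. Osteoclast markers were abundant: the 15 osteoclast genes summed to between 17633 and 28841 CPM per library. The 18 genes of macrophages and monocytes summed to between 10088 and 12510 CPM. Genes of stromal cells and osteoblasts (24 genes, 266 to 597 CPM) and of neutrophils (18 genes, 260 to 436 CPM) were present at lower sums. In this bulk RNA, fewer cells of a type and less RNA per cell cannot be told apart.

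Mmp9, known as gelatinase B, stood far above the rest. On the scale of CPM per kilobase of exon it ranked 1 of 13382 genes over the 12 libraries, with a mean of 6023 and a range of 4788 to 7188. It held 266640 to 452342 counts per library. In wild type Hes1 loxP its level per kilobase was 5578 ± 333 (SD, n = 3), 29.6 times that of Mmp14. Mmp14, the membrane-type enzyme also called MT1-MMP, followed at 189 ± 13.9 CPM per kilobase. Timp2, which both inhibits metalloproteinases and bridges Mmp14 to the Mmp2 precursor, came next at 58.2 ± 0.753 CPM per kilobase. The neutrophil collagenase Mmp8 was at 18.7 ± 1.28 CPM per kilobase in the same group. The ranges of the libraries did not overlap between any of these neighbours.

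Below them, Timp1 at 8.81 ± 0.302 and the secreted proteinase Mmp19 at 8.15 ± 0.475 CPM per kilobase overlapped. The macrophage elastase Mmp12 was at 2.16 ± 0.642 CPM per kilobase. Gelatinase A, encoded by Mmp2, and the matrix-bound inhibitor Timp3 closed the order at 1.10 ± 0.161 and 1.05 ± 0.313 CPM per kilobase, and their ranges overlapped. The first 4 places were held by Mmp9, Mmp14, Timp2 and Mmp8 in all 4 groups, without overlap between neighbours. The lower places moved. Timp1 stood above Mmp19 in both wild type groups and below it in both Notch2 mutant groups, with ranges that overlapped in wild type Hes1 loxP and in Notch2 mutant Hes1 deletion. Timp3 was last in 3 groups, and in wild type Hes1 deletion it was at 1.44 ± 0.263 CPM per kilobase beside Mmp2 at 1.28 ± 0.180, with overlapping ranges.

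**Figure D1:**
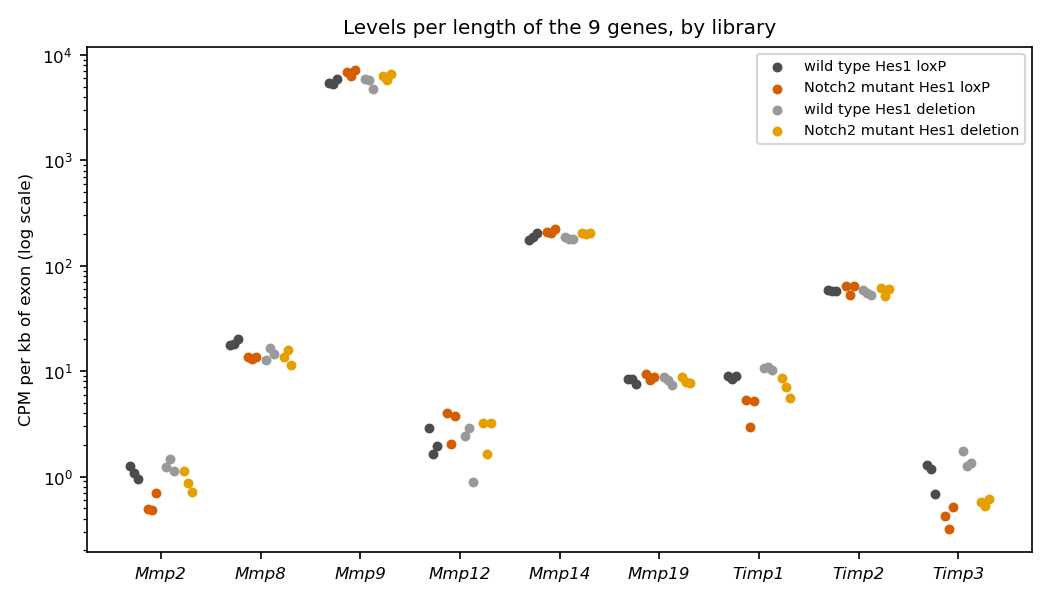
Levels of the 9 genes in each of the 12 libraries, as CPM per kilobase of exon on a log axis; points are libraries and colours are groups. Mmp9 lies between 4788 and 7188, Mmp14 and Timp2 follow, and Mmp2 and Timp3 lie lowest.

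The counts behind these levels set how precisely each gene could be compared. Mmp14 had 14587 to 23473 counts per library and Timp2 3194 to 4408. Mmp8 had 449 to 880, Mmp19 415 to 571 and Mmp12 103 to 483. The least covered were Timp3 with 46 to 245, Timp1 with 47 to 175 and Mmp2 with 23 to 91 counts per library. All 9 passed the filter on low counts.

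The genes are spread over the genome (GRCm38, GENCODE M21). Mmp8 (ENSMUSG00000005800, chr9:7558456-7568485) and Mmp12 (ENSMUSG00000049723, chr9:7344381-7369499) lie on the plus strand in the metalloproteinase cluster of chromosome 9. Their neighbours there were nearly silent apart from Mmp27 with 1438 and Mmp13 with 698 counts over the 12 libraries: Mmp10 had 44, Mmp3 had 9, Mmp7 had 2, and Mmp1a, Mmp1b and Mmp20 had 0. Mmp2 (ENSMUSG00000031740) is at chr8:92827291-92853420, Mmp9 (ENSMUSG00000017737) at chr2:164940780-164955850, Mmp14 (ENSMUSG00000000957) at chr14:54431612-54445364 and Mmp19 (ENSMUSG00000025355) at chr10:128790910-128800824, all on the plus strand. Timp2 (ENSMUSG00000017466) is on the minus strand at chr11:118301069-118355740.

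Timp1 and Timp3 each lie inside a synapsin gene on the opposite strand. Timp1 (ENSMUSG00000001131, chrX:20870166-20874735) lies within Syn1 with 0 shared exon bases, and Syn1 itself had 5237 counts. Timp3 (ENSMUSG00000020044, chr10:86300372-86349506) lies within Syn3 and shares 1733 exon bases with it, while Syn3 had 7 counts over the 12 libraries. Mmp19 shares 789 exon bases with Tmem198b (1568 counts) and 212 with Gm47093 (1 count), and Mmp12 shares 157 with Mmp1b (0 counts), all on opposite strands. Whether the deposited counting used strand is not stated. Without strand, reads over shared exon bases may have been set aside as ambiguous between genes, and other reads of these antisense pairs may be mixed. Levels per kilobase of genes with shared exon bases may then be too low.

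The first comparison asked how the Notch2 mutation changed these genes where Hes1 was intact. Timp3, Timp1 and Mmp8 fell in the mutant, and no member rose past the threshold of an edgeR adjusted p of 0.05. These 3 of 9 members stand beside 104 of 13403 genes called in that comparison, or 0.776%. Of these 104 genes, 85 were lower and 19 higher, so most calls over all genes were also falls. The median log2 fold change of the members was 0.08, and 0.00 over all genes tested. Libraries of the 2 groups did not overlap for 5 of 9 members (Mmp2, Mmp8, Mmp9, Timp1 and Timp3), beside 18.3% of all genes tested. These 5 and Mmp14, or 6 of 9, had an unadjusted p under 0.05 in edgeR, beside 1897 of 13403 genes.

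Timp3, the inhibitor that binds to the extracellular matrix and also blocks ADAM sheddases, was at 10.4, 9.59 and 5.62 CPM in the wild type Hes1 loxP libraries. In the Notch2 mutant Hes1 loxP libraries it was at 3.47, 2.57 and 4.16 CPM. The 3 mutant libraries were all below the lowest wild type library, replicate 3. The log2 fold change was -1.29 ± 0.23 (SE; edgeR adjusted p = 0.0136), or 0.408-fold with a 95% interval of 0.294 to 0.568. The call was lost without wild type Hes1 loxP replicate 1 (edgeR adjusted p = 0.0568), without its replicate 2 (0.0606) and without Notch2 mutant Hes1 loxP replicate 2 (0.0570), with log2 fold changes of -1.15, -1.18 and -1.11.

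Timp1, a secreted inhibitor that acts on most soluble metalloproteinases and poorly on Mmp14, was at 8.00, 7.52 and 7.95 CPM in wild type Hes1 loxP. It was at 4.77, 2.62 and 4.61 CPM in Notch2 mutant Hes1 loxP. The wild type libraries lay close together, and the lowest mutant library was replicate 2. The log2 fold change was -0.95 ± 0.19 (SE; edgeR adjusted p = 0.0241), or 0.516-fold with a 95% interval of 0.392 to 0.681. The call was lost without the same 3 libraries in turn: wild type Hes1 loxP replicate 1 (edgeR adjusted p = 0.0715), its replicate 2 (0.0653) and Notch2 mutant Hes1 loxP replicate 2 (0.0747, with a log2 fold change of -0.71).

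Mmp8, a collagenase that cleaves triple-helical collagen I and is stored in neutrophil granules, was at 43.2, 44.1 and 48.9 CPM in wild type Hes1 loxP. The Notch2 mutant Hes1 loxP libraries were at 33.2, 31.5 and 33.0 CPM. All 3 lay below every wild type library, by a smaller ratio than for either inhibitor. The log2 fold change was -0.46 ± 0.10 (SE; edgeR adjusted p = 0.0384), or 0.728-fold with a 95% interval of 0.630 to 0.841. Without any one of the 6 libraries compared it was not called, with edgeR adjusted p = 0.0708, 0.0843 and 0.0923 without wild type replicates 1, 2 and 3, and 0.0720, 0.0920 and 0.108 without mutant replicates 1, 2 and 3.

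For these 3 genes called lower, the bases before their RefSeq start sites are shown (GRCm38.p6, plus strand, 5′ to 3′), up to the first annotated exon. RefSeq entries matched 6 of the 9 members: Mmp8, Mmp12, Mmp14, Timp1, Timp2 and Timp3. The lines cover chr10:86300162-86300371 for Timp3, chrX:20869916-20870165 for Timp1 and chr9:7558179-7558428 for Mmp8, and capitals mark motif matches.
Timp3: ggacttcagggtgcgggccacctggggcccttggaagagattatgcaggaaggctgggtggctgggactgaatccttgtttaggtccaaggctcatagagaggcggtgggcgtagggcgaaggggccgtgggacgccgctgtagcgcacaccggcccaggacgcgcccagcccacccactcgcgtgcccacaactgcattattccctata
Timp1: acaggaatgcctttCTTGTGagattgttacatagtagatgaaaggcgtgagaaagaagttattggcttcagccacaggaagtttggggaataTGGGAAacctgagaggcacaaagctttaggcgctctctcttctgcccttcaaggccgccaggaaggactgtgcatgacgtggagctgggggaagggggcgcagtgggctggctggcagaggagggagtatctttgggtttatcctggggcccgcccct
Mmp8: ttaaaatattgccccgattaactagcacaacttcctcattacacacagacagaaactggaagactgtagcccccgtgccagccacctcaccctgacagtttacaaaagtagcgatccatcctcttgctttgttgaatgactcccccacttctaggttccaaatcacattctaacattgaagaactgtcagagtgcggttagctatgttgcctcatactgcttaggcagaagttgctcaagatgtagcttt
The 250 bases before each start were searched on both strands for TGGGAA, the core bound by RBPJ, for CACNAG, the N box bound by Hes proteins, and for TGANTCA, the AP-1 site. Timp1 held an N box match at -236, read on the opposite strand as CTTGTG, and TGGGAA at -158. Neither Timp3 nor Mmp8 held any of the 3, and nor did Mmp14 or Timp2, while a window of Mmp12 held an AP-1 match at -44. Of 32851 RefSeq windows of this length, 21.6% held TGGGAA, 36.7% the N box and 6.75% the AP-1 site. GC content was 63.8% in the Timp3 stretch, 54.4% in that of Timp1 and 44.8% in that of Mmp8. A match in these letters is a description and does not show that a factor was bound.

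Among the members not called in this comparison, the gelatinases lay in opposite directions. Mmp2 was at 4.25, 3.68 and 3.17 CPM in wild type Hes1 loxP and at 1.66, 1.62 and 2.36 CPM in Notch2 mutant Hes1 loxP. The groups did not overlap, at a log2 fold change of -0.93 ± 0.23 (SE; edgeR adjusted p = 0.0625), and DESeq2 called it (DESeq2 adjusted p = 0.0330). Mmp9 was at 19220, 18911 and 21091 CPM in wild type and at 24262, 22464 and 25438 CPM in the mutant. Every mutant library was above every wild type library, at a log2 fold change of 0.31 ± 0.08 (SE; edgeR adjusted p = 0.0842), or 1.24-fold with a 95% interval of 1.10 to 1.40. DESeq2 called Mmp9 as well (DESeq2 adjusted p = 0.00974), and edgeR called it (edgeR adjusted p = 0.0147) once a library outside this comparison, wild type Hes1 deletion replicate 3, was left out. No other fit with 1 library left out called Mmp9. Over 21 alternative fits Mmp9 was called in 3 and Mmp2 in 4. Osteoclast genes were also higher in the mutant libraries: the 15 summed to 23585 ± 659 CPM in wild type Hes1 loxP and to 27654 ± 1046 CPM in Notch2 mutant Hes1 loxP (SD, n = 3), with ranges of 23103 to 24335 and 26868 to 28841. Of these 15, 13 had positive log2 fold changes, with a median of 0.18, and 1 was called, the cell fusion gene Ocstamp (0.25), in 3 of the 12 fits with 1 library left out, those without wild type Hes1 loxP replicate 3, wild type Hes1 deletion replicate 3 or Notch2 mutant Hes1 deletion replicate 1. Their part in the Mmp9 and Mmp14 values was not tested.

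Mmp14, which activates the Mmp2 precursor at the cell surface, was at 1051, 1108 and 1215 CPM in wild type and at 1250.0, 1206 and 1320.1 CPM in the mutant. The top wild type library lay just above the lowest mutant one, and the log2 fold change was 0.19 ± 0.06 (SE; edgeR adjusted p = 0.119), called by DESeq2 (DESeq2 adjusted p = 0.0419). Over 21 alternative fits Mmp14 was called in 3. Mmp12 was at 20.8, 11.9 and 14.2 CPM in wild type and at 28.8, 14.9 and 27.2 CPM in the mutant. Its libraries spread more than those of any other member relative to the mean of their group, except Timp3 in wild type Hes1 loxP. The log2 fold change of Mmp12 was 0.63 ± 0.33 (SE; edgeR adjusted p = 0.402), with a 95% interval of -0.06 to 1.32.

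For Mmp19 and Timp2 the intervals of this comparison included 0. Mmp19 was at 29.9, 29.6 and 26.9 CPM in wild type and at 33.3, 28.9 and 30.8 CPM in the mutant, with a log2 fold change of 0.13 and a 95% interval of -0.05 to 0.31. Timp2 was at 230.2, 225.8 and 224.7 CPM in wild type and at 252.6, 204.7 and 247.9 CPM in the mutant, with a log2 fold change of 0.08 and a 95% interval of -0.09 to 0.24. The Timp2 value of Notch2 mutant replicate 2 lay below all wild type libraries and the other 2 above them. For both genes the edgeR adjusted p was above the threshold, at 0.522 for Mmp19 and 0.726 for Timp2.

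**Figure D2:**
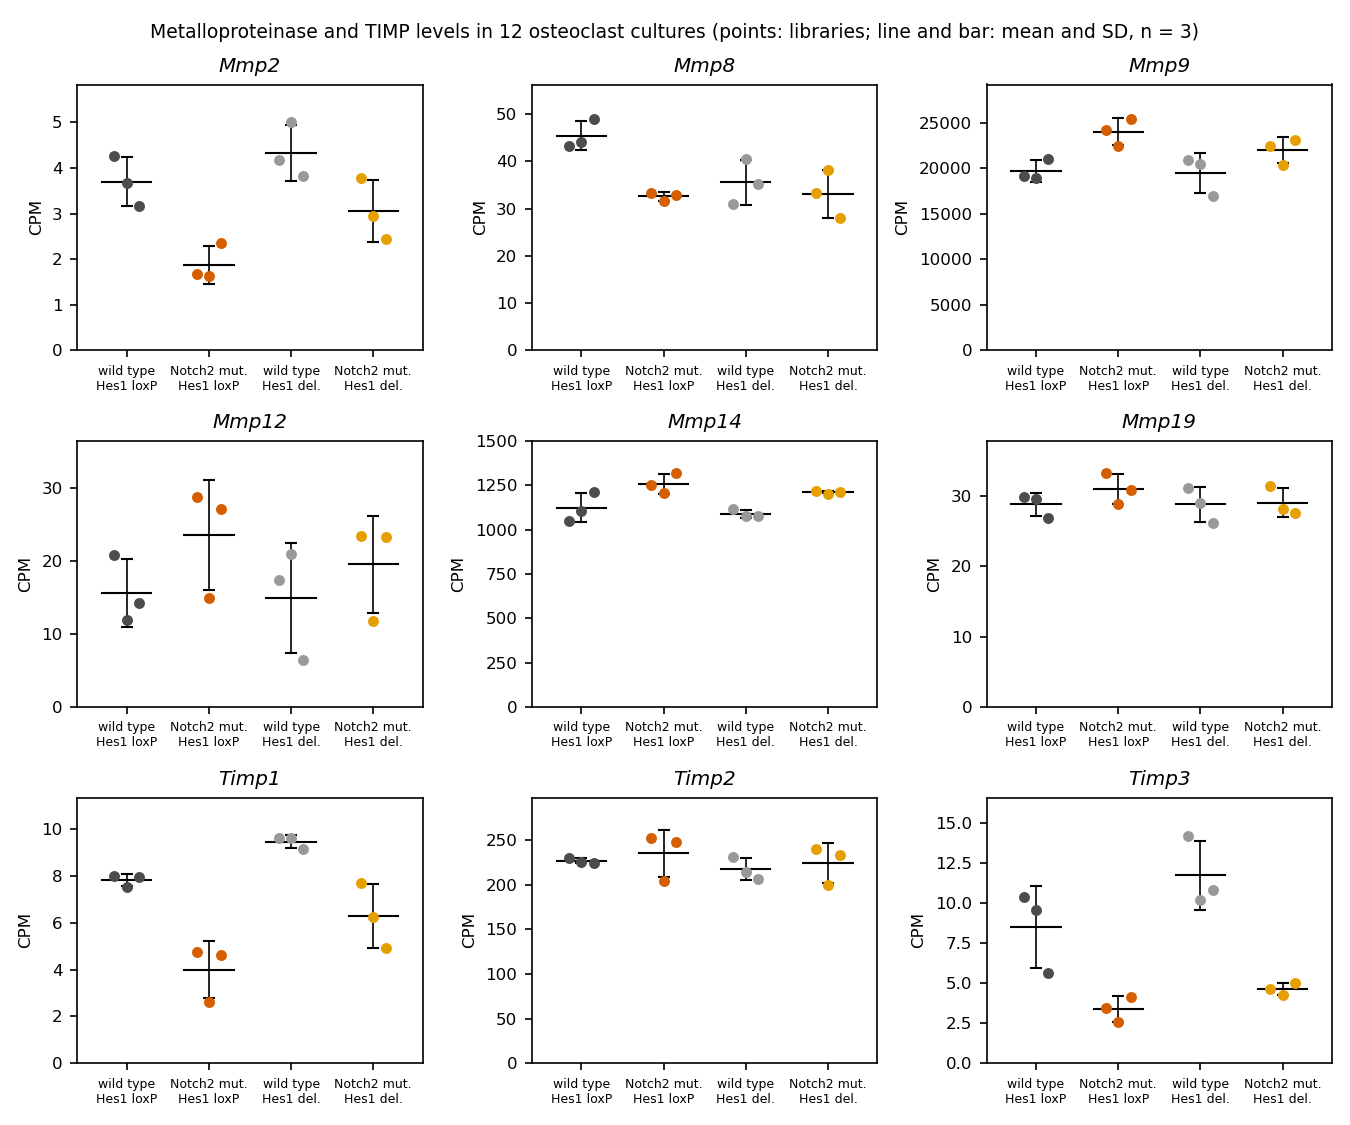
Level of each gene in CPM (vertical axis from 0) in the 4 groups; points are libraries, and lines and bars are the mean and SD of 3. Timp3, Timp1 and Mmp2 are lower in the Notch2 mutant groups than in the wild type groups with the same Hes1 status, and Mmp9 is higher in Notch2 mutant Hes1 loxP than in wild type Hes1 loxP.

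The second comparison asked for the effect of the Notch2 mutation after Hes1 was deleted. Timp3 fell again, and it was the only member called, 1 of 9 beside 2 of 13403 genes, or 0.0149%. It was at 14.2, 10.2 and 10.8 CPM in wild type Hes1 deletion and at 4.67, 4.27 and 4.99 CPM in Notch2 mutant Hes1 deletion. The lowest wild type library was above 10 CPM and the highest mutant library below 5. The log2 fold change of Timp3 was -1.33 ± 0.21 (SE; edgeR adjusted p = 0.0452), or 0.399-fold with a 95% interval of 0.294 to 0.542. Of the 12 libraries left out in turn, 7 ended the call, with log2 fold changes between -1.42 and -1.16. The edgeR adjusted p was then 0.206 and 0.0630 without wild type Hes1 deletion replicates 1 and 2, and 0.159, 0.355 and 0.258 without Notch2 mutant Hes1 deletion replicates 1, 2 and 3. Leaving out Notch2 mutant Hes1 loxP replicate 1 gave 0.0890 and leaving out wild type Hes1 loxP replicate 2 gave 0.0625, although neither library belongs to the groups compared.

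Timp1 was at 9.60, 9.62 and 9.15 CPM in wild type Hes1 deletion and at 7.69, 6.26 and 4.92 CPM in Notch2 mutant Hes1 deletion. The groups did not overlap, at a log2 fold change of -0.58 ± 0.18 (SE; edgeR adjusted p = 0.628). Mmp2 was at 4.17, 5.005 and 3.82 CPM in wild type and at 3.77, 2.95 and 2.43 CPM in the mutant, again without overlap, at -0.50 ± 0.21 (SE; edgeR adjusted p = 0.712). Mmp14 was at 1117, 1079.5 and 1076 CPM against 1218, 1204 and 1212 CPM, also without overlap, at 0.16 ± 0.06 (SE; edgeR adjusted p = 0.650). With Timp3 these were 4 of 9 members without overlap, beside 12.4% of all genes tested. At an unadjusted p under 0.05 the members were these 4 and Mmp9, or 5 of 9, beside 897 of 13403 genes tested.

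Mmp9 was at 20971, 20499 and 16946 CPM in wild type Hes1 deletion and at 22499.5, 20399 and 23103 CPM in Notch2 mutant Hes1 deletion, so the groups overlapped. Its log2 fold change was 0.19, with a 95% interval of 0.01 to 0.36. The osteoclast genes summed to 19143 ± 1308 CPM in wild type Hes1 deletion and to 21413 ± 914 CPM in Notch2 mutant Hes1 deletion (SD, n = 3), with 14 of 15 positive, a median of 0.12 and 0 called. These sums include the cathepsin K gene Ctsk, at 4071 to 11132 CPM over the 12 libraries. On Hes1 deletion, Ctsk was at -0.99 on the log2 scale with wild type Notch2 (edgeR adjusted p = 4.84e-07). With mutant Notch2 it was at -1.11 (edgeR adjusted p = 8.89e-08). Both calls held in 12 of 12 fits with 1 library left out. Ctsk was the only osteoclast gene called for Hes1 deletion. The list medians were -0.04 and -0.08 in the same order, with 14 of 15 negative each time. Mmp8, called lower in the mutant with intact Hes1, was at 31.0, 40.5 and 35.2 CPM in wild type and at 33.2, 38.1 and 28.0 CPM in the mutant. Here its log2 fold change was -0.09, with a 95% interval of -0.30 to 0.12. Mmp12, Mmp19 and Timp2 overlapped between the groups at 0.38, 0.02 and 0.06.

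Whether the Notch2 effect differed between the Hes1 backgrounds was tested by the interaction term. edgeR called 0 of 9 members and 0 of 13403 genes (0%), with 1 member and 506 genes at an unadjusted p under 0.05, and DESeq2 and limma-voom also called 0 members. That member was Mmp8, at 0.37 with a 95% interval of 0.07 to 0.66 (edgeR unadjusted p = 0.0188, adjusted p = 0.999). For Timp3 the difference between the 2 Notch2 effects was -0.03, with a 95% interval of -0.70 to 0.64. It was 0.37 (-0.18 to 0.92) for Timp1 and 0.43 (-0.22 to 1.083) for Mmp2. Such intervals are wide, so they do not show that the effects were equal.

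Hes1 deletion on its own called no member. In wild type cells edgeR called 0 of 9 members beside 5 of 13403 genes, or 0.0373%, with 2 members (Mmp8 and Timp3) at an unadjusted p under 0.05 beside 795 of all genes tested, and 0 members called by DESeq2 and limma-voom. Libraries did not overlap between these groups for 2 of 9 members, Mmp8 and Timp1, beside 10.9% of all genes tested. In Notch2 mutant cells it called 0 of 9, again beside 5 of 13403 genes, or 0.0373%, with Mmp2 and Timp1 at an unadjusted p under 0.05 beside 638 of all genes tested, and 0 members called by DESeq2 and limma-voom. Here 3 of 9 members did not overlap, Mmp2, Timp1 and Timp3, beside 11.0% of all genes tested. These comparisons use the same libraries as the preceding ones, so the values are given side by side and are not independent of them.

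With Hes1 deleted in wild type cells, Mmp8 was lower without overlap between the groups, at 35.5 ± 4.80 CPM against 45.4 ± 3.10 CPM (SD, n = 3). Its log2 fold change was -0.37 ± 0.10 (SE; edgeR adjusted p = 0.502). In Notch2 mutant cells Mmp8 was at 33.1 ± 5.05 against 32.6 ± 0.888 CPM, with overlapping libraries. The ratio of these means was 1.02, while the log2 fold change fitted on TMM-scaled libraries was -0.01, with a 95% interval of -0.22 to 0.21. Timp1 was at 9.46 ± 0.269 against 7.82 ± 0.268 CPM in wild type cells, without overlap and at 0.26 ± 0.17 (SE; edgeR adjusted p = 0.925). In Notch2 mutant cells Timp1 was at 6.29 ± 1.38 against 4.00 ± 1.20 CPM, also without overlap, at 0.63 ± 0.20 (SE; edgeR adjusted p = 0.816).

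Mmp2 was at 4.33 ± 0.608 against 3.70 ± 0.542 CPM on Hes1 deletion in wild type cells, at 0.22 on the log2 scale. In Notch2 mutant cells it was at 3.05 ± 0.678 against 1.88 ± 0.417 CPM, without overlap and at 0.65 ± 0.24 (SE; edgeR adjusted p = 0.839). Timp3 was at 11.7 ± 2.14 against 8.53 ± 2.55 CPM in wild type cells, at 0.45 ± 0.19 (SE; edgeR adjusted p = 0.809). In Notch2 mutant cells Timp3 was at 4.64 ± 0.358 against 3.40 ± 0.799 CPM, without overlap and at 0.42 ± 0.25 (SE; edgeR adjusted p = 0.977). The log2 fold changes of Mmp9, Mmp12, Mmp14, Mmp19 and Timp2 with Hes1 deletion were between -0.08 and -0.02 in wild type cells and between -0.30 and -0.09 in Notch2 mutant cells, none called.

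**Figure D3:**
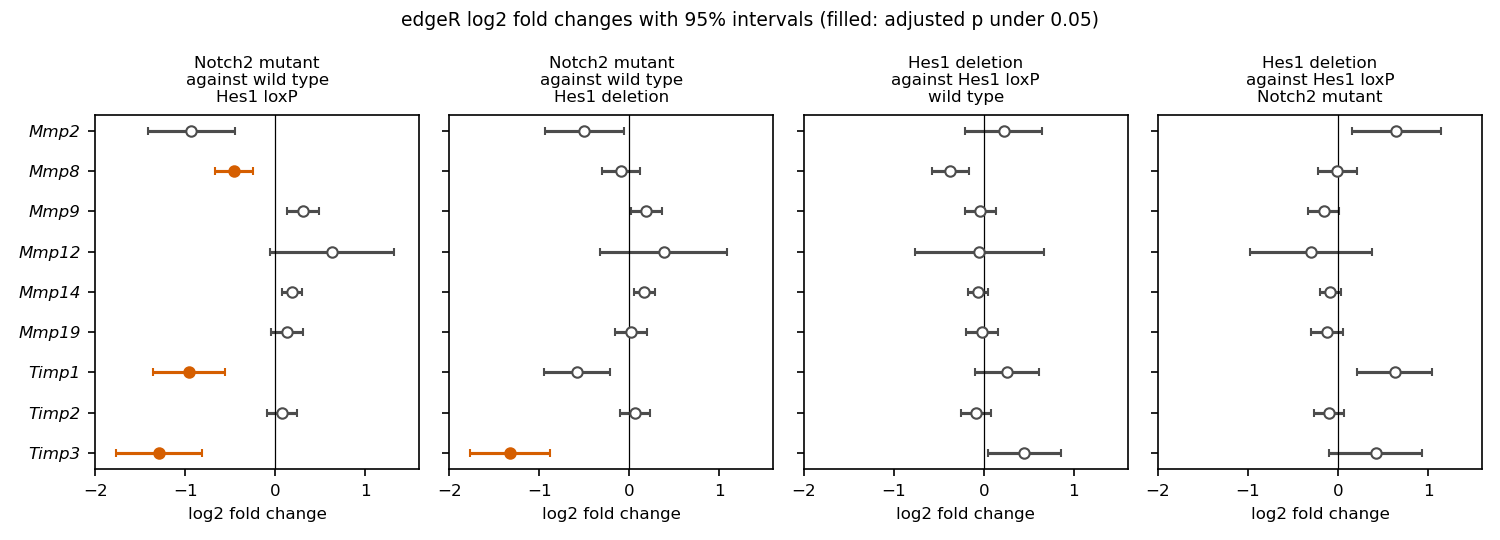
Log2 fold changes from edgeR (horizontal axis) with 95% intervals for the 9 genes in the 4 two-group comparisons; filled points passed an adjusted p of 0.05. Timp3, Timp1 and Mmp8 are filled in the Notch2 comparison with intact Hes1, Timp3 alone is filled after Hes1 deletion, and none is filled in either Hes1 comparison.

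The summed marker genes of stromal cells and osteoblasts were also lower in the groups in which Timp3, Timp1 and Mmp2 were low. The 24 stromal and osteoblast genes, among them Col1a1 and Fn1, summed to 475 ± 30.8 CPM in wild type Hes1 loxP and to 349 ± 74.3 CPM in Notch2 mutant Hes1 loxP (SD, n = 3), with ranges of 444.5 to 506.1 and 266.1 to 410.1. After Hes1 deletion the sums were 569 ± 40.1 CPM in wild type (523.1 to 597.1) and 429 ± 56.6 CPM in the mutant (382.3 to 492.1). In the Notch2 comparison with intact Hes1, 20 of 21 tested stromal genes had negative log2 fold changes, with a median of -0.55 and 2 called lower, Tagln and Cxcl12, each in 3 of the 12 fits with 1 library left out. After Hes1 deletion 18 of 21 were negative, with a median of -0.52 and 0 called. In both Hes1 comparisons most were positive, 20 of 21 in wild type and 19 of 21 in Notch2 mutant cells, with medians of 0.28 and 0.30. The matrix gene Lum (4 counts over the 12 libraries) and the osteoblast gene Bglap (6 counts) were near 0, while Col1a1 had 22338 counts.

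With a stromal score (mean log2 CPM of the tested stromal genes) as a covariate, no member was called in any comparison. Timp3 was then at -0.93 (edgeR adjusted p = 0.311) and Timp1 at -0.31 (0.551) in the Notch2 comparison with intact Hes1, and Timp3 at -1.01 (0.722) after Hes1 deletion. Mmp8 was at -0.33 (0.382), and all genes called in the first comparison went from 104 to 2. The stromal sums did not overlap between the Notch2 genotypes, with Hes1 intact or deleted. A fit with such a covariate cannot fully separate it from the genotype. The part of stromal cells in these results was not tested beyond that fit.

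The level of neutrophil genes is given beside Mmp8. Their 18 genes summed to 383 ± 47.0 CPM in wild type Hes1 loxP, 320 ± 46.1 in Notch2 mutant Hes1 loxP, 314 ± 49.97 in wild type Hes1 deletion and 292 ± 36.7 in Notch2 mutant Hes1 deletion. Of 17 tested, 13 had negative log2 fold changes in the Notch2 comparison with intact Hes1 (median -0.25, 0 called). The neutrophil surface gene Ly6g was at 0.167 to 0.686 CPM, while S100a9 was at 42.8 to 73.4 CPM and Ngp at 28.7 to 75.4 CPM. With a neutrophil score as a covariate Mmp8 was at -0.38 and not called (edgeR adjusted p = 0.0860), while Timp1 (0.0119) and Timp3 (0.000610) were. Mmp2, not called in the main fit, was also called with this covariate, at -1.09 (edgeR adjusted p = 0.0325). Neutrophils' part in the Mmp8 result was not tested beyond that fit. Of 18 macrophage genes, 14 had negative log2 fold changes in the same comparison, with a median of -0.21, and 3 were called lower: Msr1 (-0.47), Fcgr1 (-0.83) and Adgre1 (-0.42). With 1 library left out in turn, Msr1 was called in 12 of 12 fits, Fcgr1 in 11, not without Notch2 mutant Hes1 loxP replicate 3, and Adgre1 in 8. The Adgre1 call was lost without replicate 1 or 2 of wild type Hes1 loxP or replicate 2 or 3 of Notch2 mutant Hes1 loxP. None of the 3 was called with the stromal score in the fit, where Msr1 was at -0.44, Fcgr1 at -0.81 and Adgre1 at -0.31.

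**Figure D4:**
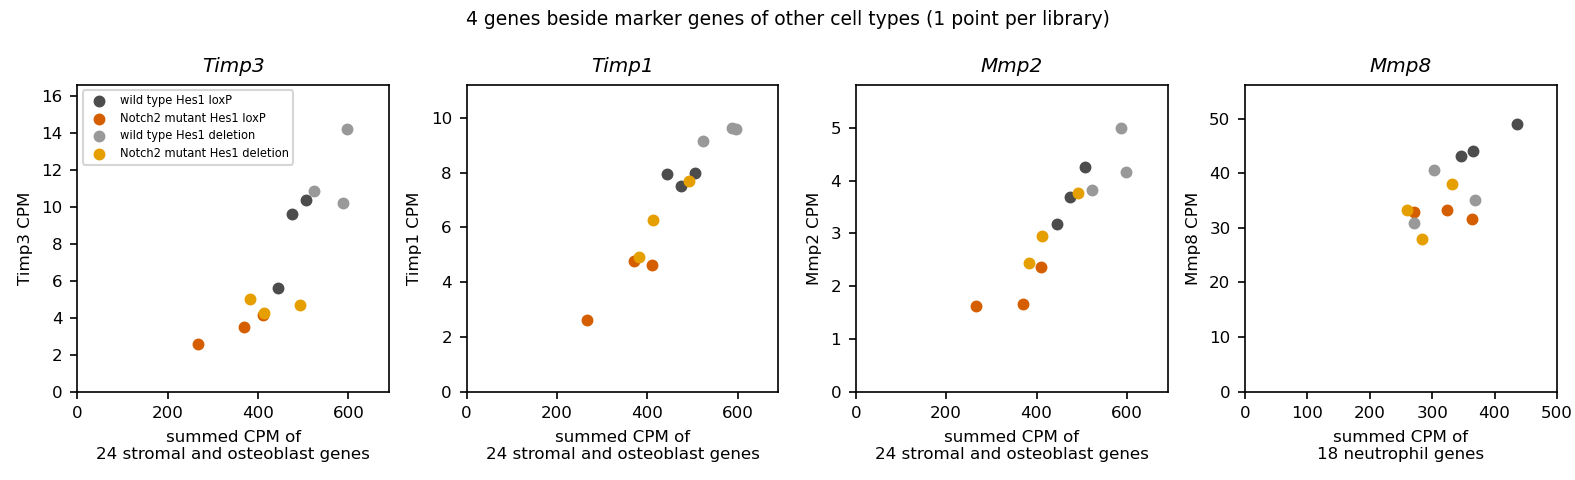
Levels in CPM of Timp3, Timp1 and Mmp2 against the summed CPM of 24 stromal and osteoblast genes, and of Mmp8 against that of 18 neutrophil genes; each point is 1 library and colours are groups. The library with the lowest stromal sum, 266.1 CPM, also has the lowest Timp3, Timp1 and Mmp2, at 2.57, 2.62 and 1.62 CPM.

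Some pairs of members ran together over the 12 libraries. On log2 CPM, Mmp2 and Timp1 had r = 0.92, Mmp2 and Timp3 r = 0.87, and Timp1 and Timp3 r = 0.86. After each group's mean was removed these were 0.60, 0.43 and 0.34. Mmp9 had r = 0.86 with Mmp14 (0.59 within groups) and r = 0.82 with Mmp12 (0.83 within groups). Mmp14 and Timp3 ran opposite, at r = -0.83 (-0.23 within groups). The libraries share genotypes and total counts, so these values are a description over 12 points and carry no test.

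The genes whose pattern was most like each member were taken from 10483 expressed genes. For Timp1 they included the collagen gene Col1a1 (r = 0.96) and Ccn2 (0.95). For Mmp2 they were Nedd4 (0.96), the lysyl oxidase relative Loxl2 (0.93) and Timp1 (0.92). For Timp3 they were Prkar2b, the connexin gene Gja1 (both 0.96) and Gas7 (0.95). For Mmp9 they were the lysosomal enzyme Hexa (0.99), the creatine kinase Ckb and Acp5 (both 0.98), the last encoding the tartrate-resistant acid phosphatase by which osteoclasts are stained. Mmp14 was closest to the creatine transporter gene Slc6a8, Card14 (both 0.97) and Mt3 (0.95). Mmp12 was closest to Ifi30, Tyrobp and Txnip (each 0.94), and Mmp8 to the chemokine gene Pf4 (0.91), Mrpl54 (0.85) and Zfp592 (0.84). Mmp19 was closest to Galc (0.93), Cerk (0.89) and Vsig10 (0.88), and Timp2 to the lysosomal protease gene Ctsb (0.93), Coq10a and Dym (both 0.88). Each r is over 12 libraries.

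The other genes of the pathway were read from 4 lists. Of the 17 remaining metalloproteinases, 5 passed the filter (Mmp11, Mmp13, Mmp23, Mmp25 and Mmp27) and 0 were called in any of the 5 comparisons. Mmp27 led them at a mean of 3.28 CPM per kilobase, and its log2 fold change in the Notch2 comparison with intact Hes1 was -0.46 ± 0.18 (SE; edgeR adjusted p = 0.236). The fourth inhibitor, Timp4, had 0 counts, and the membrane-anchored inhibitor Reck had 68 counts over the 12 libraries and was not tested.

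Of 26 genes that activate, inhibit, bind or clear metalloproteinases, 18 were tested. With intact Hes1, 4 fell in the Notch2 mutant and 0 rose, with a median of -0.06 over the list. Over all 13403 genes tested, 85 were called lower and 19 higher in that comparison. Thbs2, a thrombospondin known to help clear Mmp2, fell by 1.15 ± 0.18 on the log2 scale (SE; edgeR adjusted p = 0.00660), and its relative Thbs1 by 0.39 ± 0.08 (0.0328). Lrp1, the endocytic receptor that takes up Mmp9 and TIMP complexes, went from 833 to 637 CPM, at -0.36 ± 0.07 (SE; edgeR adjusted p = 0.0247). Serpinb2, an inhibitor of the plasminogen activator urokinase, fell by 1.54 ± 0.34 on the log2 scale (SE; edgeR adjusted p = 0.0433). With each of the 12 libraries left out in turn, Thbs2 was called in 12 of 12 fits. Lrp1 was called in 8, not without wild type Hes1 loxP replicate 1 or 2 or Notch2 mutant Hes1 loxP replicate 2 or 3, and Thbs1 in 7, not without these or wild type Hes1 loxP replicate 3. Serpinb2 was called in 4 of 12, those without Notch2 mutant Hes1 loxP replicate 3, wild type Hes1 deletion replicate 1 or 3 or Notch2 mutant Hes1 deletion replicate 1. None of the 4 was called with the stromal score as a covariate. Their log2 fold changes were then -1.05 for Thbs2, -0.37 for Lrp1, -0.41 for Thbs1 and -0.54 for Serpinb2.

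Several abundant genes of this list were not called in either Notch2 comparison, and only some are named here. Among them were Bsg, an inducer of metalloproteinases, at a mean of 278 CPM per kilobase, and the docking receptor Cd44 at 73.3. Others were the urokinase gene Plau at 39.7 and the activating protease gene Furin at 23.1. After Hes1 deletion 0 of the 18 were called between the Notch2 genotypes. Hes1 deletion in wild type cells raised Cav1, the caveolin gene, by 0.32 ± 0.06 on the log2 scale (SE; edgeR adjusted p = 0.0438), a call that held in 3 of the 12 fits with 1 library left out, those without Notch2 mutant Hes1 loxP replicate 2 or 3 or wild type Hes1 deletion replicate 3. With the stromal score as a covariate Cav1 was at 0.27 and not called (edgeR adjusted p = 0.429). Hes1 deletion called 0 of the 18 in Notch2 mutant cells.

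Of 17 ADAM and ADAMTS proteases, relatives of which Timp3 can inhibit some, 11 were tested and 0 were called in any comparison. Adam8 had the smallest adjusted p of the list with intact Hes1, at -0.30 ± 0.07 (SE; edgeR adjusted p = 0.0625).

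Matrix proteins that metalloproteinases cut made up the last list, of 23 genes. With intact Hes1, 22 of 22 tested substrates had negative log2 fold changes in the Notch2 mutant, with a median of -0.55, and 3 were called lower. Tnc, encoding tenascin C, fell by 1.09 ± 0.10 on the log2 scale (SE; edgeR adjusted p = 2.09e-05), the versican gene Vcan by 0.56 ± 0.10 (0.0154) and the collagen VI gene Col6a3 by 0.95 ± 0.17 (0.0154). After Hes1 deletion 21 of 22 were negative, with a median of -0.44, and Tnc was called, at -0.68 ± 0.09 (SE; edgeR adjusted p = 0.00812). Hes1 deletion in Notch2 mutant cells raised Tnc by 0.64 ± 0.10 on the log2 scale (SE; edgeR adjusted p = 0.0169), with 20 of 22 substrates positive, and in wild type cells 17 of 22 were positive and 0 called. The list shares Col1a1, Fn1 and other genes with the stromal markers, and the fall of the stromal sum given for the Notch2 mutant groups stands beside these counts too. With the stromal score as a covariate Tnc was called in the first comparison, at -0.95 (edgeR adjusted p = 0.0268), and not in the other 2. Vcan, at -0.66 (0.223), and Col6a3, at -0.58 (0.353), were not called.

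With 1 library left out in turn, Tnc was called in 12 of 12 fits in the Notch2 comparison with intact Hes1. It was called in 10 of 12 fits after Hes1 deletion, not without Notch2 mutant Hes1 deletion replicate 1 or 3. For Hes1 deletion in Notch2 mutant cells it was called in 9 of 12, not without Notch2 mutant Hes1 loxP replicate 1 or 2 or Notch2 mutant Hes1 deletion replicate 2. In the first comparison Vcan was called in 10 of 12 fits, not without wild type Hes1 loxP replicate 2 or Notch2 mutant Hes1 loxP replicate 3. Col6a3 was called in 9 of 12, not without wild type Hes1 loxP replicate 1 or 2 or Notch2 mutant Hes1 loxP replicate 2.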

How the data were processed

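Counts per gene from 12 stranded mRNA libraries, paired-end reads of 75 bp, were used as deposited: whole-number counts, not normalized. The tools named in the submitters' processing notes are DESeq2, HTSeq, Picard, SAMtools and HISAT2, with the build GRCm38; the sources used here give no version, annotation release or strand setting. Summary rows that name no gene held 15.8 to 19.0% of each file (6.11 to 8.31% ambiguous between genes) and were left out. GENCODE M21 named 52133 of 55414 gene IDs.

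Tests used edgeR 4.0.16 (R 4.3.3) on all 12 libraries together, with 1 mean for each group: TMM scaling, filterByExpr (minimum count 10, minimum total 15; 13403 genes kept), the quasi-likelihood F-test, two-sided, and Benjamini-Hochberg adjustment over all genes tested, called at 0.05. SE is the log2 fold change divided by the square root of F, and intervals of 95% use the t distribution. CPM per kilobase uses the union of exons. DESeq2 1.42.0, limma-voom (limma 3.58.1), RLE scaling, other filters, a replicate block, marker scores as covariates and each library left out were alternatives. For the list genes these alternatives were chosen after seeing the data. The script was tested on simulated data.

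The members and lists were chosen with earlier results of these data known. All 9 members are named, with called genes of the 4 pathway lists, up to 4 others per list and comparison by adjusted p, and the 3 most similar genes per member (Pearson r, mean log2 CPM of at least 1; 1 such gene is not reported here); the abundant Bsg, Cd44, Furin, Plau and Reck, and the marker genes, were named after their values were seen.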

Additional observations from a re-analysis of the deposited data

How the results depend on the processing

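Of 936 log2 fold changes of the 9 genes under the alternatives, 859 kept their direction and their side of the threshold, 26 lost a call, 17 gained one and 34 reversed. In the Notch2 comparison with intact Hes1, 3 members and 104 genes were called. These were 7 and 657 without a filter on low counts, 6 and 242 with DESeq2, and 0 and 2 once the stromal score was a covariate. With 1 library left out they were 0 to 5 members and 26 to 289 genes; the 5 came without wild type Hes1 deletion replicate 3, and the 0 without wild type Hes1 loxP replicate 1 or 2 or Notch2 mutant Hes1 loxP replicate 2. After Hes1 deletion, 1 member and 2 genes were called. These were 4 and 138 without a filter, 0 and 1 by limma-voom, 0 and 1 where genes needed a mean count of 50, 0 and 0 with the stromal score, and 0 to 1 and 0 to 5 with 1 library left out.

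For Hes1 deletion in wild type cells, 0 members and 5 genes became 1 and 135 without a filter, with 2 genes at a mean count of 50 or more, 10 with DESeq2, and 3 to 26 with 1 library left out. In Notch2 mutant cells, 0 and 5 became 2 and 110 without a filter, with 2 genes at a mean count of 50 or more, 3 with limma-voom, 3 with the stromal score and 3 to 6 with 1 library left out. The interaction called 0 genes, 63 without a filter and 0 to 12 with 1 library left out. The cause of these shifts was not tested, beyond the change in genes tested from 13403 to 25080 without a filter and to 10554 at a mean count of 50 or more.

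No log2 fold change that reversed had been called. With the neutrophil score as a covariate, Timp2 with intact Hes1 was at -0.038 and Mmp19 after Hes1 deletion at -0.0061 in the Notch2 mutant, and the interaction was 0.090 for Mmp12, 0.059 for Timp2 and 0.16 for Timp3. With the stromal score, Mmp8 was at 0.015 in the Notch2 comparison after Hes1 deletion and Timp1 at -0.086 for Hes1 deletion in wild type cells. With 1 library left out, the Notch2 comparison after Hes1 deletion ran from -0.20 to 0.021 for Mmp8 and from -0.050 to 0.090 for Mmp19. Hes1 deletion in wild type cells ran from -0.10 to 0.059 for Mmp9, -0.38 to 0.31 for Mmp12 and -0.084 to 0.052 for Mmp19, and in Notch2 mutant cells from -0.11 to 0.10 for Mmp8. The interaction ran from -0.60 to 0.080 for Mmp12, -0.076 to 0.032 for Mmp14, -0.11 to 0.071 for Timp2 and -0.21 to 0.21 for Timp3.

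Replicate numbers were not taken as pairs: same-numbered libraries correlated at -0.07 to 0.10 in their deviations from the group means. In the Notch2 comparison with intact Hes1 every mutant library correlated best with the wild type library of its own number (r of 0.07 to 0.10). That is a hint from the data and not from the design. With the number as a replicate block, 148 genes and 3 members were called there, and 2 genes and 1 member after Hes1 deletion. Depth limits Mmp2, Timp1 and Timp3, with as few as 23, 47 and 46 counts in a library.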
